A study of Mus musculus with 32 samples.

Results

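Lysosomal hydrolases and membrane proteins were followed in the 4 mononuclear phagocyte types of the mouse lung. The set holds 35 genes, taken as a list of symbols and not by their values, and all 35 were found among the 24940 genes of the authors' expression table. By role it holds 13 glycosidases, 4 sulfatases, 5 lipid hydrolases, 2 activator proteins, 2 sterol transport proteins, 6 membrane proteins and 3 peptidases or phosphatases. Aga, whose enzyme cuts an amide bond, is counted with the glycosidases throughout. RNA was measured in macrophages of the alveoli (AM) and of the interstitium (IM), and in the inflammatory (iMo) and patrolling (pMo) types of monocyte, all sorted from the lungs of DBA2J and C57BL6J mice, with 2 libraries per cell type and strain and 16 in all. The mice were untreated, and no age, sex or transgene is given in the labels. AM live in the airspace and IM in the lung tissue, while iMo and pMo are the Ly6C-high and Ly6C-low types of circulating monocyte. One label field calls the monocytes macrophages, and the name used in the study design is kept here. The labels do not say whether the 2 libraries of a group came from different animals, so all p-values measure only the spread between these libraries. Cells of each type were sorted in bulk, so fewer cells that express a gene and less RNA per cell cannot be told apart.

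Lysosomes break down material that a phagocyte takes up or recycles. Soluble hydrolases are made in the endoplasmic reticulum, tagged with mannose 6-phosphate in the Golgi and delivered to a compartment that a proton pump keeps acidic, where exo-enzymes strip sugars and sulfate groups one after another from glycans and glycolipids. Activator proteins lift lipids out of membranes for these enzymes, and NPC1 and NPC2 pass the freed cholesterol out of the lysosome. In the lung, AM clear surfactant lipid and inhaled particles, and loss of single enzymes of this set causes lysosomal storage diseases. Many lysosomal genes carry E-box letters near their start, which are bound by the MiT/TFE factors TFEB, TFE3, MITF and TFEC.

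The E-box CACGTG was looked for in the RefSeq promoters of the members, 250 bases before to 50 after the start, build GRCm38.p6, a reference made from C57BL/6J. Promoters were found for 31 of the 35 members, and 7 of them (Gaa, Gla, Glb1, Naglu, Arsa, Lamp1 and Cln3) held CACGTG, which reads the same on both strands. This is 22.6% of the members with a promoter, against 11.6% of the 10343 tested genes with one and 7.15% of all 32851 promoters. The sequences printed are 100 bases of each of the 5 promoters that held the E-box and had an accessible chromatin (ATAC) peak in the window in at least 6 of the 8 peak lists. They are shown because these letters differ in number and place among members with open starts, and capitals mark each E-box.
Gaa: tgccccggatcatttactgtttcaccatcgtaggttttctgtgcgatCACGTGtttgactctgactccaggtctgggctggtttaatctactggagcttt
Gla: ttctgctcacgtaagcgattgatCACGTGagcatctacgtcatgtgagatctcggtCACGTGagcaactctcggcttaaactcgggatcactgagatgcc
Glb1: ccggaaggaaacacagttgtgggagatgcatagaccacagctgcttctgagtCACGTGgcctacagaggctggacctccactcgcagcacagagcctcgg
Naglu: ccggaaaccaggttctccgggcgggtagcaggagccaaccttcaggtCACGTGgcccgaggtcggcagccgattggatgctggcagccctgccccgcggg
Lamp1: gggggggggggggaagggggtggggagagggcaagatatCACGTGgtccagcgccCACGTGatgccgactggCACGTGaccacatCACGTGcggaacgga
The Gaa stretch is chr11:119267776-119267875 on the plus strand, the Gla stretch chrX:134601156-134601255 on the minus strand, the Glb1 stretch chr9:114400978-114401077 on the plus strand, the Naglu stretch chr11:101069974-101070073 on the plus strand, and the Lamp1 stretch chr8:13159061-13159160 on the plus strand. Lamp1 held 4 E-boxes in this stretch and Gla 2, and the others held 1 each. Both E-boxes of Gla extend to TCACGTGA, the core of the CLEAR element, which also reads the same on both strands. That longer motif, which contains the E-box, was found in 2 of the 31 members (Gla and Cln3) and in 2.18% of the tested genes. The AP-1 letters TGAGTCA were found on either strand in 4 members (Glb1, Neu1, Psap and Cd68; 4.72% of tested genes), and the PU.1 letters GAGGAAGT in 2 (Gla and Gusb; 4.06%). These are counts of letters and say nothing of binding.

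The expression values are TPM, recomputed after the ribosomal entries Rn45s and Mir6236, which made up 22.6% to 67.6% of a library's deposited sum and most in AM, were removed. The deposited values are whole reads divided by the gene's genomic span, so that 6676154 to 22616683 reads per library could be recovered. A TPM here is therefore a level per span, and levels are compared between libraries for a gene and not between genes. Where 4 values are given for a cell type, those of the DBA2J libraries precede those of the C57BL6J libraries. The lowest read number of a member other than Cd63 was 28, for Aga. The summed markers were highest in the sort they name. In AM 7 AM markers summed to 2937 to 6537 TPM against 177 to 1662 TPM in the other types, and in IM 7 IM markers summed to 13105 to 33859 TPM against 222 to 10689.9 TPM elsewhere. The 7 iMo markers summed to 5769 to 7166 TPM in iMo against 464 to 4619 TPM elsewhere, and the 7 pMo markers to 14674 to 16189.5 TPM in pMo against 776 to 5118 TPM elsewhere. Single markers went the other way. Of each list of 7, 6 AM markers, 6 IM markers, 5 iMo markers and 7 pMo markers had their highest mean in the type they name. Fabp4, listed for AM, had 29.5 to 61.6 TPM in AM against 71.6 to 139.7 TPM in pMo, Pparg averaged 55.4 TPM in AM and 51.5 TPM in pMo, and Cx3cr1, listed for IM, averaged 461 TPM in IM, 541 TPM in iMo and 684 TPM in pMo. Chil3, listed for both AM and iMo, averaged highest in AM. IM libraries also held 6318 to 10697 TPM over 8 neutrophil markers, against 84.0 to 123 TPM in AM and 289 to 665 TPM in monocytes. S100a8, from the neutrophil list, had 3592 and 3380.2 TPM in DBA2J IM and 3093 and 2831 TPM in C57BL6J IM. Ly6g, the marker used in the sort panel, had 2.22 and 2.89 TPM in DBA2J IM and 0.693 and 5.21 TPM in C57BL6J IM.

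AM carried the highest mean level of 22 of the 35 members, IM of 8, pMo of 3 and iMo of 2, and the lowest mean level of 19 members was in pMo. The summed level of the 35 genes was 15850 ± 1103 TPM in AM, 12338 ± 2391 TPM in IM, 14598 ± 637 TPM in iMo and 11819 ± 785 TPM in pMo (SD, n = 4 libraries of both strains each). This sum weights genes of short span more, and its order depends on the scaling, since the sum in AM over that in monocytes was 1.20 but 0.806 with the TPM as deposited. Counted as reads, the members took 1.29% ± 0.113 of the non-ribosomal reads in AM and 0.973% ± 0.0970 in IM, against 1.37% ± 0.0454 in iMo and 0.883% ± 0.0856 in pMo, with the SD over 4 libraries.

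**Figure D1:**
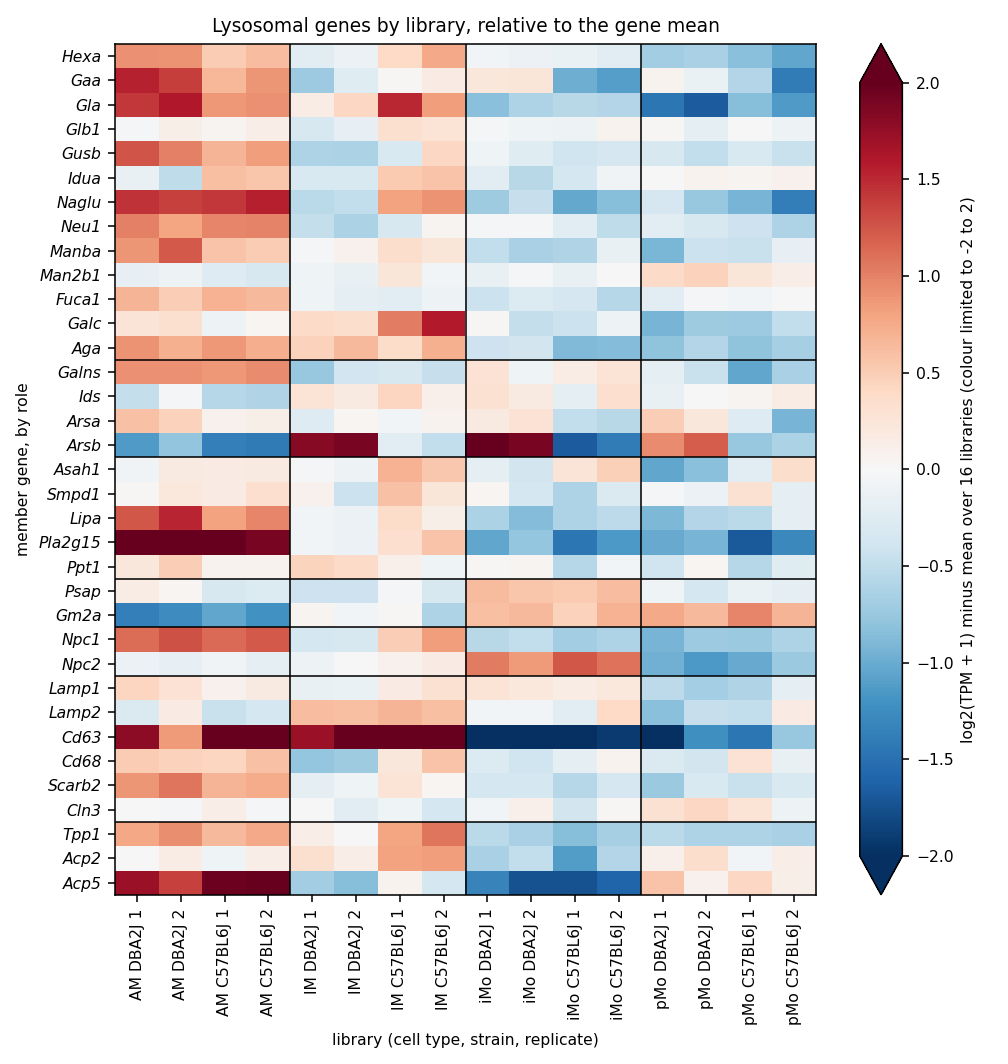
Level of each of the 35 genes in each of the 16 libraries as log2(TPM + 1) minus the gene's mean over all libraries, with genes grouped by role (lines) and libraries by cell type. Red cells dominate the 4 AM columns, Gm2a and Arsb are blue there, and Arsb is red in the DBA2J libraries of IM, iMo and pMo.

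Against the monocytes, taken as the mean of iMo and pMo, 24 members were called higher in AM and 5 lower. Calls were made at an adjusted p under 0.05 in limma over all 13873 tested genes. Over all tested genes 27.6% were called higher and 30.1% lower, and the median difference was 0.66 for the members and -0.02 for all genes (log2). The members stood above the background for higher calls (24 of 35) and below it for lower calls (5 of 35). In 19 members every AM library was above every monocyte library, which held for 17.1% of all genes, and in 12 members every AM library was above all 12 other libraries, which held for 9.68%. Gm2a was the 1 member below every monocyte library in all AM libraries, which held for 17.1% of all genes.

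Against IM, 17 members were called higher in AM and 6 lower. Among all tested genes 19.7% were called higher and 38.9% lower, and the median difference was 0.25 for the members and -0.27 for all genes. This split depends on the scaling, because the median of all genes was -0.68 with the TPM as deposited, which gave 9 members higher and 17 lower, and 0.05 with median-of-ratios scaling, which gave 24 higher and 4 lower. Against monocytes the same scalings gave 17 higher and 9 lower, and 26 higher and 4 lower. In the C57BL6J libraries alone 9 members were called higher in AM than in IM. Without both C57BL6J IM libraries 2 were called lower in AM than in IM. IM had 17 members called higher than monocytes and 2 lower, where 33.4% of all genes were called higher and 12.0% lower, and 11 higher and 6 lower without both C57BL6J IM libraries.

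**Figure D2:**
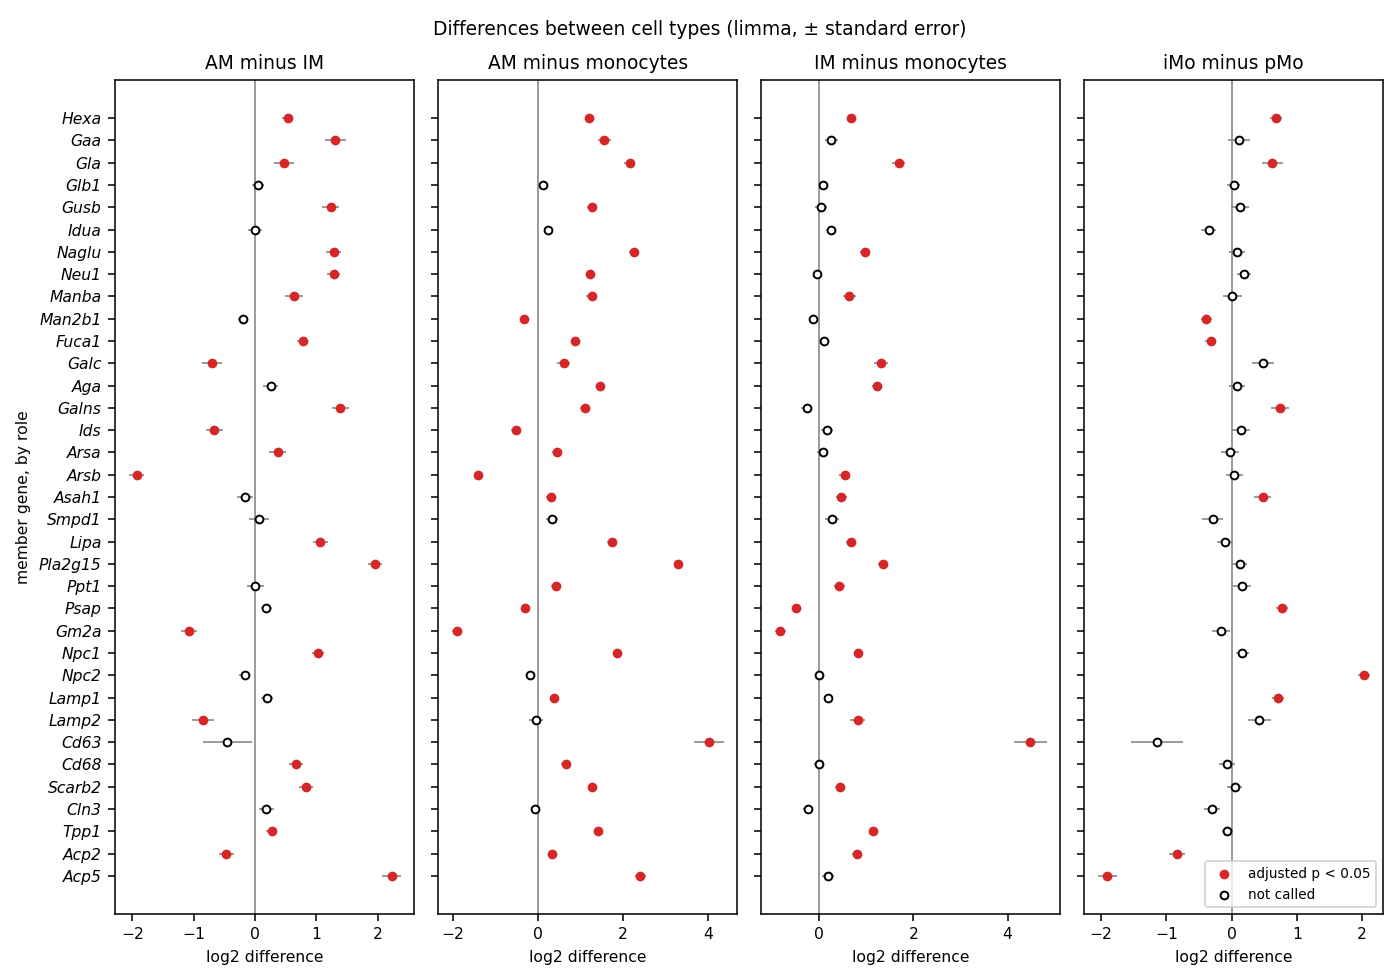
Difference in log2(TPM + 1) for each of the 35 genes in 4 comparisons, with standard errors from limma; red points had an adjusted p under 0.05 and open points did not. AM minus monocytes has most points right of 0, led by Cd63 at 4.03 and Pla2g15 at 3.31.

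Among the enzymes of the set, the largest difference of AM from monocytes was that of a lipid hydrolase. Pla2g15 (chr8:106150354-106164718, mm10, plus strand), the lysosomal phospholipase A2 that acts on surfactant-type phospholipids in AM, had 705, 715, 577 and 531 TPM in AM, 136, 130.1, 179 and 211 TPM in IM, and 43.4 to 82.1 TPM (median 65.7) in the 8 monocyte libraries. All AM libraries were above all IM libraries, which were above all monocyte libraries (AM minus monocytes 3.31 ± 0.10, adjusted p = 7.01e-10; AM minus IM 1.95 ± 0.11, adjusted p = 1.64e-07). Lipa, the acid lipase that splits cholesteryl esters and triglycerides, showed the same order. It had 275, 334, 203 and 228 TPM in AM, 111, 106, 149 and 125 TPM in IM and 61.6 to 102 TPM (median 76.1) in monocytes, with AM minus monocytes at 1.74 ± 0.11, adjusted p = 1.15e-07 and AM minus IM at 1.06 ± 0.12, adjusted p = 3.01e-05. Ppt1, which removes fatty acids from proteins, was called higher in AM than in monocytes at 0.43 ± 0.12, and Asah1, the acid ceramidase, at 0.31 ± 0.11, but both differences were below 0 with the TPM as deposited, and that of Asah1 also in the C57BL6J libraries alone. Asah1 averaged 111 TPM in AM and 109 TPM in iMo, against 81.7 TPM in pMo. For Smpd1, the acid sphingomyelinase, AM minus monocytes was 0.34 ± 0.14, adjusted p = 0.0621 and was not called.

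Of the 13 glycosidases, 10 were called higher in AM than in monocytes and 1 lower, and 8 were called higher than in IM and 1 lower. Over all tested genes 27.6% were called higher and 30.1% lower than in monocytes, and 19.7% higher and 38.9% lower than in IM. The same shares stand beside the counts of the other roles. Naglu (chr11:101070094-101077671, plus strand), which takes N-acetylglucosamine off heparan sulfate, had 205, 194, 201 and 220.0 TPM in AM, 51.0, 52.5, 131 and 139 TPM in IM and 28.0 to 58.8 TPM (median 42.1) in monocytes (AM minus monocytes 2.26 ± 0.11, adjusted p = 2e-08; AM minus IM 1.28 ± 0.13, adjusted p = 9.92e-06). Gla, the α-galactosidase that degrades globosides, had 44.3, 50.6, 30.1 and 31.1 TPM in AM, 17.9, 21.7, 47.5 and 29.4 TPM in IM and 4.38 to 10.6 TPM (median 8.47) in monocytes. Its AM and IM libraries overlapped, and both types were above all monocytes (AM minus monocytes 2.16 ± 0.14, adjusted p = 1.76e-07; IM minus monocytes 1.69 ± 0.14, adjusted p = 4.39e-06). Its AM minus IM difference of 0.47 ± 0.16 was called but was below 0 with the TPM as deposited and in the C57BL6J libraries alone. Gaa, which breaks down lysosomal glycogen, and Gusb, the β-glucuronidase, were called higher in AM in both comparisons, at 1.57 ± 0.15 and 1.27 ± 0.12 against monocytes and 1.31 ± 0.17 and 1.23 ± 0.14 against IM. Neu1, the sialidase, stood at 1.24 ± 0.09 and 1.28 ± 0.11, Manba at 1.28 ± 0.13 and 0.63 ± 0.15, and Fuca1, the α-fucosidase, at 0.87 ± 0.08 and 0.78 ± 0.09. Hexa, a subunit of β-hexosaminidase, was called higher in AM than in monocytes at 1.21 ± 0.08 and than in IM at 0.53 ± 0.09, where the difference was below 0 with the TPM as deposited and in the C57BL6J libraries alone.

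Not every glycosidase was highest in AM. Galc, which degrades galactosylceramide, had 14.9, 15.6, 11.4 and 12.7 TPM in AM and 16.3, 15.9, 26.1 and 38.7 TPM in IM, so that each AM library was below each IM library (AM minus IM -0.71 ± 0.17, adjusted p = 0.00403), and it was called higher in AM than in monocytes at 0.61 ± 0.14. Aga was called higher in both macrophages than in monocytes (1.48 ± 0.11 in AM and 1.22 ± 0.11 in IM), and AM minus IM was 0.25 ± 0.12, adjusted p = 0.0982, which was not called. Man2b1, the lysosomal α-mannosidase, was called lower in AM than in monocytes at -0.32 ± 0.07. It averaged 719 TPM in AM and 785 TPM in iMo, whose libraries overlapped, against 1030 TPM in pMo. Glb1, the β-galactosidase, and Idua, the α-iduronidase, were not called in either AM comparison, and Glb1 lay between 18.1 and 28.7 TPM in all 16 libraries. Glb1 and Idua overlap other genes in the table (Tmppe, and Dgkq and Slc26a1), so their reads are uncertain.

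The 4 sulfatases split evenly, with 2 called higher and 2 lower in AM in both comparisons. Galns, which removes sulfate from keratan and chondroitin sulfate, had 64.6, 64.2, 62.7 and 65.6 TPM in AM, 19.6, 25.6, 26.9 and 24.2 TPM in IM and 15.8 to 41.3 TPM (median 30.6) in monocytes, and all AM libraries were above all others (AM minus IM 1.39 ± 0.13, adjusted p = 7.89e-06; AM minus monocytes 1.12 ± 0.12, adjusted p = 9.08e-06). Arsa, which desulfates sulfatide, was called higher in AM at 0.37 ± 0.14 against IM and 0.45 ± 0.12 against monocytes, both below 0 with the TPM as deposited, and the call against IM held in 16 of 30 alternatives. Ids, which acts on heparan and dermatan sulfate, was called lower at -0.66 ± 0.14 and -0.50 ± 0.12. Arsb, which acts on dermatan sulfate, was called lower at -1.93 ± 0.13, adjusted p = 3.84e-07 against IM and -1.39 ± 0.11, adjusted p = 9.51e-07 against monocytes, and its level depended on strain as described further on.

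Both activator proteins were called lower in AM than in monocytes. Gm2a (chr11:55097985-55113028, plus strand), the cofactor of β-hexosaminidase A for ganglioside GM2, had 245, 266, 310.0 and 273 TPM in AM, 664, 614, 648 and 416 TPM in IM and 879 to 1251 TPM (median 1012) in monocytes. No library of one of these groups overlapped the next (AM minus monocytes -1.90 ± 0.12, adjusted p = 1.19e-07; AM minus IM -1.07 ± 0.13, adjusted p = 5.6e-05). Hexa, a subunit of its partner enzyme, stood higher and Gm2a lower in AM than in monocytes. Psap, the precursor of the saposins, had 4712, 4385, 3407 and 3528 TPM in AM, 3214, 3209, 4219.8 and 3409 TPM in IM, 6647, 6247, 6152 and 6575 TPM in iMo and 4036, 3365, 3915 and 3739 TPM in pMo. The iMo libraries were above all others, and AM minus monocytes was -0.30 ± 0.08, adjusted p = 0.00775. Psap was not lower in AM than in pMo by the mean, at 4008 TPM in AM and 3764 TPM in pMo, and their libraries overlapped. The sterol transport proteins differed from each other. Npc1, the membrane partner, had 143, 159.9, 145 and 155 TPM in AM, 51.0, 52.4, 92.3 and 117 TPM in IM and 34.0 to 46.4 TPM (median 41.1) in monocytes, with every AM library above every IM library and every IM library above every monocyte library (AM minus monocytes 1.86 ± 0.08, adjusted p = 1.15e-08). For Npc2, the soluble partner, AM minus monocytes was -0.18 ± 0.08, adjusted p = 0.0706 and was not called.

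Of the 6 membrane proteins 4 were called higher in AM than in monocytes. Cd63, a tetraspanin of late endosomes and lysosomes, had 47.9, 24.4, 86.7 and 70.7 TPM in AM, 45.8, 56.7, 98.8 and 101 TPM in IM and 0.470 to 7.33 TPM (median 2.22) in monocytes. These are 63 to 213 reads in AM and 63 to 109 in IM, against 1 to 10 in monocytes, so the fitted differences of 4.03 ± 0.35 for AM and 4.48 ± 0.35 for IM depend on the pseudocount of 1. Both macrophages were above all monocytes for Cd63, and AM minus IM was -0.46 ± 0.40, adjusted p = 0.347, which was not called. Scarb2, the receptor that carries β-glucocerebrosidase to lysosomes, had 134, 152, 117 and 121 TPM in AM, 62.9, 67.9, 87.2 and 74.2 TPM in IM and 42.6 to 58.4 TPM (median 56.1) in monocytes (AM minus monocytes 1.27 ± 0.10, adjusted p = 8.64e-07), and no 2 of these groups overlapped. Cd68, a macrophage scavenger-type membrane protein, was called higher in AM than in monocytes at 0.66 ± 0.10 and than in IM at 0.67 ± 0.12. Lamp1 was called higher than in monocytes at 0.39 ± 0.08, a difference below 0 with the TPM as deposited. It averaged 850 TPM in AM and 829 TPM in iMo, against 512 TPM in pMo. Lamp2 was called lower in AM than in IM at -0.85 ± 0.18, and Cln3 was not called in either comparison.

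Acp5 (chr9:22126727-22130598, minus strand), the tartrate-resistant acid phosphatase, had 460.3, 359.6, 539 and 554 TPM in AM, 84.8, 75.9, 145 and 108 TPM in IM, 54.0, 40.7, 40.7 and 44.6 TPM in iMo and 206, 147, 185 and 149.8 TPM in pMo. All AM libraries were above all others, and pMo were above iMo (AM minus IM 2.22 ± 0.15, adjusted p = 5.71e-07; AM minus monocytes 2.42 ± 0.13, adjusted p = 4.92e-08; iMo minus pMo -1.90 ± 0.15, adjusted p = 1.44e-05). Tpp1, a tripeptidyl peptidase, had 552, 613, 502 and 542 TPM in AM, 353, 322, 557 and 679 TPM in IM and 177 to 221 TPM (median 207) in monocytes. Both macrophages were above all monocytes (AM minus monocytes 1.42 ± 0.08, adjusted p = 4.65e-08), while AM and IM overlapped and AM minus IM, at 0.27 ± 0.09, adjusted p = 0.0212, turned negative with the TPM as deposited and in the C57BL6J libraries alone. Acp2, the lysosomal acid phosphatase, was called higher in IM than in monocytes at 0.81 ± 0.11 and lower in AM than in IM at -0.47 ± 0.12. Its AM minus monocytes difference of 0.34 ± 0.11 was called and was below 0 with the TPM as deposited. Acp2 averaged 138 TPM in AM, above 81.6 TPM in iMo but not above 146 TPM in pMo.

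**Figure D3:**
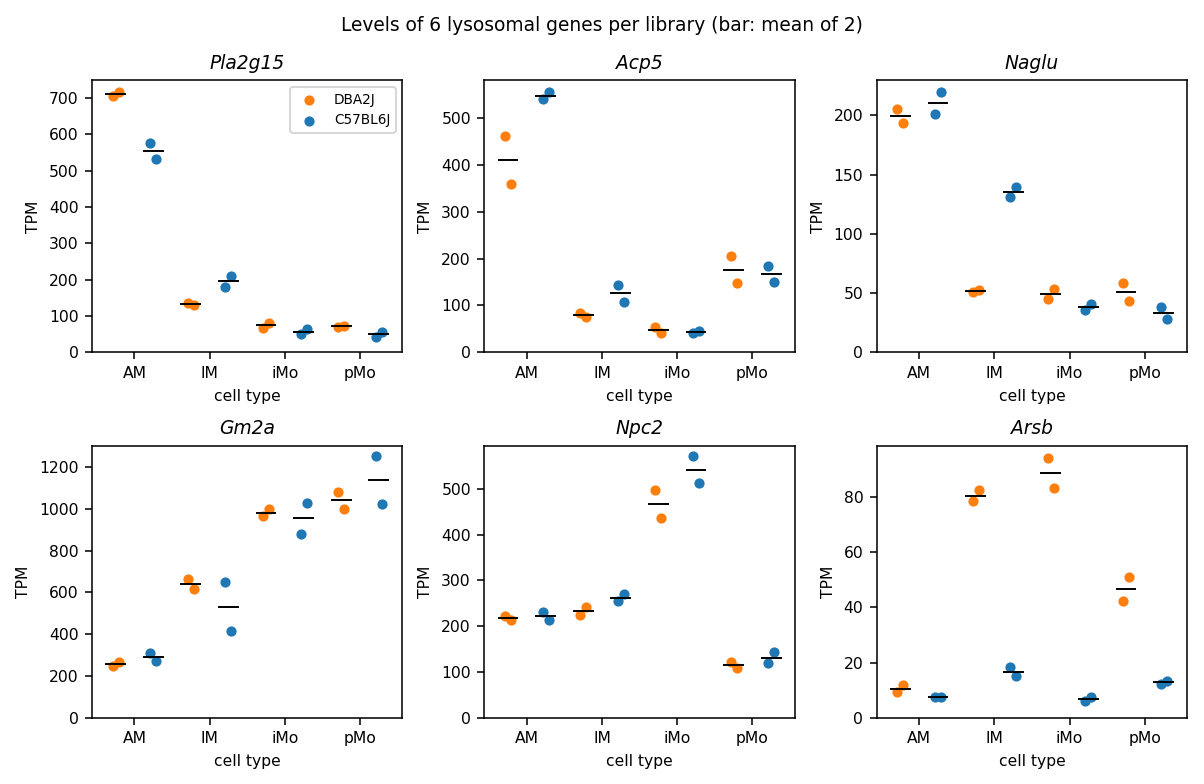
TPM per library for 6 members in the 4 cell types, with orange points for DBA2J, blue points for C57BL6J and a bar at the mean of 2 libraries. Pla2g15 and Acp5 are highest in AM, Gm2a lowest there, Npc2 highest in iMo, and Naglu and Arsb differ between strains in IM.

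Between the monocytes, 7 members were called higher in iMo than in pMo and 4 lower, where 8.31% of all genes were called higher and 14.1% lower. Npc2 had 498, 437, 571 and 512 TPM in iMo and 123, 108, 119.7 and 144 TPM in pMo, with AM and IM between them and no overlap (iMo minus pMo 2.02 ± 0.09, adjusted p = 4.35e-07). Psap followed at 0.77 ± 0.09, adjusted p = 0.000212, Galns at 0.74 ± 0.13, adjusted p = 0.00264, Lamp1 at 0.71 ± 0.10, adjusted p = 0.000488, Hexa at 0.68 ± 0.09, adjusted p = 0.000405, Gla at 0.62 ± 0.16, adjusted p = 0.0171 and Asah1 at 0.47 ± 0.13, adjusted p = 0.0224. Besides Acp5, those called lower in iMo were Acp2 at -0.84 ± 0.12, Man2b1 at -0.39 ± 0.08 and Fuca1 at -0.32 ± 0.09. Scaling moved this split. With the TPM as deposited 14 members were higher and 2 lower, and with median-of-ratios scaling 10 higher and 2 lower. Over all genes the median was -0.13, and 0.13 in the TPM as deposited.

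Averaged over the 4 cell types, 3 members were called higher in DBA2J than in C57BL6J mice (Arsb, Gaa and Arsa) and 4 lower (Asah1, Idua, Cd68 and Npc1), against 6.61% of all genes called higher and 6.34% lower. Arsb had 78.5 and 82.5 TPM in DBA2J IM and 18.3 and 15.0 TPM in C57BL6J IM. In iMo it had 94.1 and 83.1 TPM in DBA2J and 6.10 and 7.54 TPM in C57BL6J, and in pMo 42.3 and 51.2 TPM in DBA2J and 12.3 and 13.5 TPM in C57BL6J. In AM it had 9.22 and 12.0 TPM in DBA2J and 7.66 and 7.43 TPM in C57BL6J. The DBA2J libraries were several times the C57BL6J libraries in IM and both monocytes, and AM were low in both strains. In C57BL6J the AM and iMo libraries overlapped, so low levels were not particular to AM there. By strain, AM minus monocytes was -2.50 in DBA2J and -0.28 in C57BL6J (log2).

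The strain difference of Arsb was 3.52 ± 0.18, adjusted p = 1.39e-06 in iMo, 2.21 ± 0.18, adjusted p = 4.48e-05 in IM and 1.77 ± 0.18, adjusted p = 0.000231 in pMo, and 0.43 ± 0.18, adjusted p = 0.264 in AM, which was not called. Over the 4 types it was 1.98 ± 0.09, adjusted p = 1.61e-07. It differed among cell types (interaction adjusted p = 0.00039). The gene spans chr13:93771679-93943016 (mm10, plus strand), which also holds Mir5624. Within each cell type 1 member was called in AM (5.05% of all genes), 12 were called in IM (12.1% of all genes), 2 in iMo (3.27%) and 4 in pMo (4.89%). These counts rest on few libraries. The count in IM was 6 without DBA2J IM replicate 1 and 7 without DBA2J IM replicate 2, that in pMo 1 without DBA2J pMo replicate 1 or C57BL6J pMo replicate 2, and that in iMo 1 without any 1 of the 4 iMo libraries. The call in AM, for Idua, was lost without DBA2J AM replicate 2 or either C57BL6J AM library.

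The other members with a strain call over the cell types had smaller differences. Gaa stood at 246 and 222 TPM in DBA2J AM against 134 and 156 TPM in C57BL6J AM, at 98.9 and 99.9 TPM in DBA2J iMo against 42.5 and 39.0 TPM in C57BL6J iMo and at 88.3 and 77.3 TPM in DBA2J pMo against 55.7 and 31.3 TPM in C57BL6J pMo, but at 50.5 and 71.1 TPM in DBA2J IM against 86.3 and 94.5 TPM in C57BL6J IM. Its strain difference was 1.27 ± 0.24, adjusted p = 0.0144 in iMo and -0.58 ± 0.24, adjusted p = 0.142 in IM, and it differed among types (interaction adjusted p = 0.0269). Arsa had 266 and 221 TPM in DBA2J pMo and 157 and 98.8 TPM in C57BL6J pMo, without overlap (0.95 ± 0.19, adjusted p = 0.018), and 0.50 ± 0.10 over the types. Asah1, lower in DBA2J in all 4 types by the mean, had 49.7 and 56.95 TPM in DBA2J pMo and 88.5 and 132 TPM in C57BL6J pMo (-1.01 ± 0.18, adjusted p = 0.00971; over the types -0.61 ± 0.09, adjusted p = 0.00104). Idua had 26.9 and 20.7 TPM in DBA2J AM and 46.0 and 44.3 TPM in C57BL6J AM (-0.91 ± 0.17, adjusted p = 0.00843), with a like difference in IM (-0.85 ± 0.17, adjusted p = 0.00858) and -0.03 ± 0.17, adjusted p = 0.979 in pMo. The mean over the types was 0.59 ± 0.12, adjusted p = 0.00773 for Gaa, -0.46 ± 0.08, adjusted p = 0.00364 for Cd68 and -0.25 ± 0.07, adjusted p = 0.037 for Npc1. Without both C57BL6J IM libraries the Npc1 difference over the remaining types was 0.0015 on the log2 scale, and the Npc1 call held in 15 of 27 alternatives.

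Most strain calls were in IM, where 11 of the 35 members were called lower in DBA2J and 1 higher, against 8.12% of all genes called lower, and in 25 members both DBA2J libraries were below both C57BL6J libraries, which held for 30.6% of all genes. The median strain difference of the members was -0.43 in IM against -0.05 for all genes, and 0.15, 0.10 and -0.03 in AM, iMo and pMo against 0.08, 0.02 and -0.02 for all genes. Naglu had 51.0 and 52.5 TPM in DBA2J IM and 131 and 139 TPM in C57BL6J IM (-1.37 ± 0.18, adjusted p = 0.00114). Cd68 had 1747 and 1833 TPM in DBA2J IM and 3512 and 4465 TPM in C57BL6J IM (-1.15 ± 0.17, adjusted p = 0.00194), and Npc1 had 51.0 and 52.4 TPM in DBA2J IM against 92.3 and 117 TPM in C57BL6J IM (-0.996 ± 0.14, adjusted p = 0.0015). In each of these the libraries of the 2 strains did not overlap.

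Smaller IM differences were called in the other 8 members. Galc stood at 16.3 and 15.9 TPM in DBA2J IM against 26.1 and 38.7 TPM in C57BL6J IM (-0.94 ± 0.24, adjusted p = 0.0274), Gla at 17.9 and 21.7 TPM in DBA2J IM against 47.5 and 29.4 TPM in C57BL6J IM (-0.89 ± 0.23, adjusted p = 0.0284) and Tpp1 at 353 and 322 TPM in DBA2J IM against 557 and 679 TPM in C57BL6J IM (-0.86 ± 0.13, adjusted p = 0.00191). Hexa had 171 and 184 TPM in DBA2J IM and 264 and 337 TPM in C57BL6J IM (-0.75 ± 0.13, adjusted p = 0.00496). Asah1 had 101 and 95.1 TPM in DBA2J IM and 167 and 149.6 TPM in C57BL6J IM (-0.68 ± 0.18, adjusted p = 0.0354). Gusb had 198 and 198 TPM in DBA2J IM and 247 and 406 TPM in C57BL6J IM (-0.67 ± 0.20, adjusted p = 0.0498), and Glb1 had 18.1 and 20.1 TPM in DBA2J IM against 28.7 and 27.9 TPM in C57BL6J IM (-0.54 ± 0.14, adjusted p = 0.0295). Idua, also called, had 23.9 and 24.1 TPM in DBA2J IM and 43.6 and 44.9 TPM in C57BL6J IM. Some of these calls were close to the threshold. Of 27 alternatives, the call of Gusb held in 4, that of Asah1 in 14 and that of Glb1 in 19.

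The IM libraries also differed in markers between strains. In DBA2J IM the 7 IM markers summed to 13105 and 15967 TPM, against 17547 and 33859 TPM in C57BL6J IM, the 7 AM markers to 489 and 513 TPM in DBA2J IM against 1486 and 1662 TPM in C57BL6J IM, and the 8 neutrophil markers to 10697 and 9360 TPM in DBA2J IM against 6326 and 6318 TPM in C57BL6J IM. Most of the AM marker gap was Chil3, at 107 and 150 TPM in DBA2J IM and 870 and 933 TPM in C57BL6J IM. Chil3 was also lower in DBA2J AM, at 1120 and 1099 TPM against 3963 and 3796 TPM in C57BL6J AM. Siglecf, Marco, Car4 and Itgax were lower in DBA2J IM too, while Fabp4 overlapped between the strains. Pparg went the other way, at 24.8 and 27.2 TPM in DBA2J IM and 22.5 and 17.8 TPM in C57BL6J IM. The part of these marker differences in the strain differences of IM was not tested. With only the 4 IM libraries in the fit, limma called none of the 35 members, and 16 had an unadjusted p under 0.05.

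**Figure D4:**
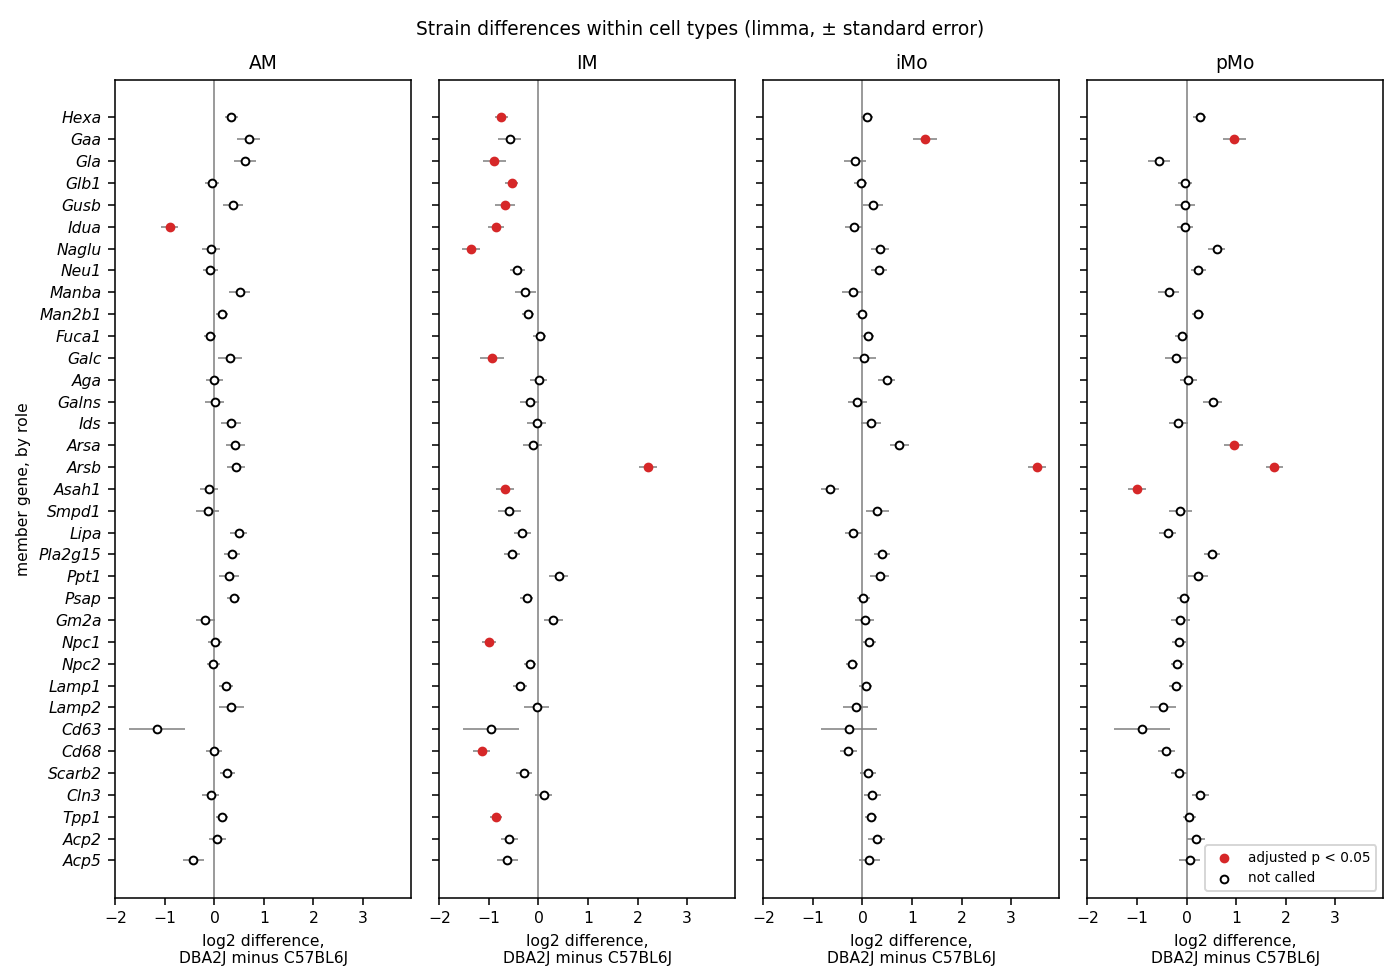
Difference in log2(TPM + 1), DBA2J minus C57BL6J, for each of the 35 genes within AM, IM, iMo and pMo, with standard errors from limma; red points had an adjusted p under 0.05. In IM most points lie left of 0 and Arsb lies at 2.21, while in iMo Arsb lies at 3.52.

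The strain difference differed among the cell types, by the interaction test, in 7 of the 35 members (Hexa, Gaa, Naglu, Arsb, Pla2g15, Npc1 and Tpp1), against 6.07% of all genes. Pla2g15 had 705 and 715 TPM in DBA2J AM against 577 and 531 in C57BL6J AM and 136 and 130.1 TPM in DBA2J IM against 179 and 211 in C57BL6J IM. Its strain difference was positive in AM, iMo and pMo and negative in IM, and was not called in any single type. The interaction calls of Gaa and Pla2g15 each held in 11 of 27 alternatives. In 6 of the 7, all but Arsb, IM had the lowest strain difference. Without both C57BL6J IM libraries 1 member, Arsb, was called, and without DBA2J IM replicate 1 there were 3 and without C57BL6J pMo replicate 1 there were 11.

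The chromatin data gave 1 ATAC peak list for each cell type and strain, made by the authors from 2 libraries, so they carry no replicate test. A peak within 500 bp of the start in the table was listed for 26 members in DBA2J AM and 27 in C57BL6J AM, 31 and 33 in DBA2J and C57BL6J IM, 30 and 30 in iMo, and 30 and 31 in pMo. Over all tested genes the shares were 61.5% and 55.9% in DBA2J and C57BL6J AM and 65.7% and 79.6% in DBA2J and C57BL6J IM. In the same order they were 70.4% and 67.1% in iMo and 66.5% and 68.7% in pMo. The AM lists were thus lowest over all tested genes too. In all 8 lists 25 of the 35 members had such a peak, 71.4% of them against 47.7% of all tested genes. Arsa and Acp5 had none at the start used in the table, although Acp5 was highest in AM. At any RefSeq start of the gene, Acp5 had a peak in 4 lists (both AM lists, C57BL6J IM and C57BL6J pMo), at -720 bp from the start in the table, and Psap, whose start in the table is an alternative one, in all 8. Ids, Lamp2 and Tpp1 had a peak in all lists but those of AM, and Cd63 had one in both IM lists alone. The lists differed in size from 24429 to 70013 peaks, the largest being C57BL6J IM.

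**Figure D5:**
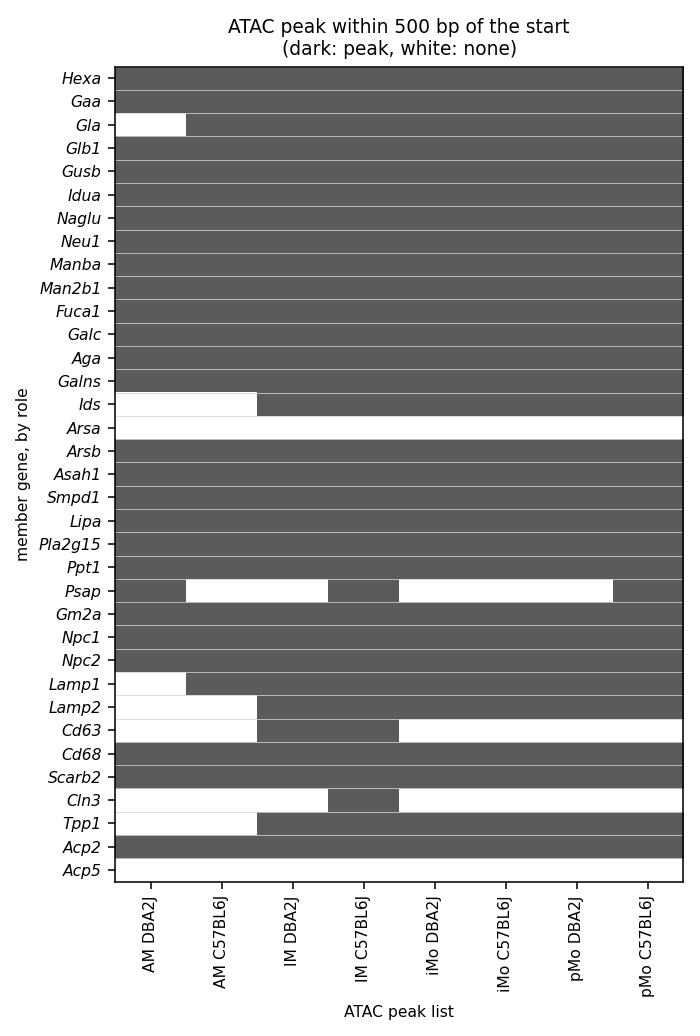
Presence (dark) or absence (white) of an ATAC peak within 500 bp of the start of each of the 35 genes in the 8 peak lists, ordered by cell type and strain. Of the 35 rows 25 are dark throughout, and Arsa and Acp5 are white throughout.

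Within 10 kb of the genes, 289 accessible regions were listed, and 58 of them were in all 8 lists. Regions listed in both AM lists and in no other numbered 15 and lay at 10 of the 35 members, 28.6% of them, against 13.8% of all tested genes. Among these, a region at -1839 bp from the start of Pla2g15 (chr8:106148408-106148623, mm10) had authors' scores of 58.7 in DBA2J AM and 32.5 in C57BL6J AM. Hexa had 2 such regions, at 4956 bp and 12281 bp after its start (chr9:59544393-59544601 and chr9:59551670-59551974), and Galc, which was lower in AM than in IM, had 3. No region at a member was in all 4 macrophage lists and no monocyte list, while 0.908% of all tested genes had one. None was in all 4 monocyte lists and no macrophage list, against 0.533% of all tested genes. With 1 list of each type enough, 21 regions at 13 members were in AM and IM lists alone, and 3 at 3 members in iMo and pMo lists alone. These looser patterns were not counted over all tested genes, and the C57BL6J IM list was the largest, so the counts cannot be read as particular to the members. Regions in at least 3 C57BL6J lists and no DBA2J list numbered 5, at Gla, Gusb, Galc and Asah1, which is 11.4% of the members against 9.99% of all tested genes. All 5 were in the C57BL6J IM list, which held 70013 peaks against 24429 in the DBA2J IM list. No region at a member was in at least 3 DBA2J lists and no C57BL6J list, while 0.469% of all tested genes had one. Arsb, the member with the largest strain difference, had no such region.

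Other lysosomal genes, listed by role, were set beside these. Against monocytes, 27.6% of all tested genes were called higher in AM and 30.1% lower. The lower calls among the further hydrolases, membrane proteins and sorting genes were near that share. Of 18 proton pump genes 15 were called higher in AM than in monocytes and none lower. Atp6v0d2, a pump subunit of macrophages and osteoclasts, had 299.7, 399, 314 and 338 TPM in AM, 27.7, 34.5, 82.6 and 136 TPM in IM and 0.0684 to 2.19 TPM (median 1.06) in monocytes (7.43 ± 0.17, adjusted p = 1.36e-10), and Atp6v1c1 and Atp6v0a1 stood at 1.44 ± 0.12 and 1.41 ± 0.10. Of 19 further hydrolases 12 were called higher and 6 lower. Pld3, a lysosomal nuclease, had 765, 719, 717 and 757 TPM in AM, 50.7, 59.4, 144 and 209 TPM in IM and 13.9 to 28.6 TPM (median 20.1) in monocytes (5.16 ± 0.15, adjusted p = 7.01e-10), and Arsg stood at 2.22 ± 0.18. Sgsh, the heparan N-sulfatase, had 146 and 153 TPM in DBA2J AM and 2.80 and 3.09 TPM in C57BL6J AM. The monocytes had 82.8 to 174 TPM (median 129), and AM minus monocytes over both strains was -2.31 ± 0.07.

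Among 21 further membrane proteins 12 were called higher in AM than in monocytes and 6 lower. Over all tested genes 27.6% were called higher and 30.1% lower. Slc11a1, the NRAMP1 metal transporter of phagosomes, had 9.41, 7.39, 3.67 and 4.61 TPM in AM, 507, 406, 604 and 381 TPM in IM and 488 to 1018 TPM (median 725) in monocytes (-6.66 ± 0.12, adjusted p = 8.2e-11). Cd164 stood at 3.83 ± 0.16 against monocytes and Tpcn1, an endolysosomal cation channel, at -3.52 ± 0.15 against IM. Of 16 sorting genes 9 were called higher and 4 lower than in monocytes. Sort1, the sortilin receptor, stood at 2.48 ± 0.10 against IM, Nagpa, which uncovers the mannose 6-phosphate tag, at 1.53 ± 0.13, and Igf2r, the mannose 6-phosphate receptor, at -2.30 ± 0.20. Of 14 tested regulators 6 were called higher and 2 lower than in monocytes. Tfec had 43.7, 57.4, 47.0 and 33.3 TPM in AM, 6.37, 7.35, 12.3 and 15.7 TPM in IM and 0.0717 to 2.51 TPM (median 1.00) in monocytes (4.51 ± 0.18, adjusted p = 5.6e-09), Mitf stood at 2.32 ± 0.13 and Lamtor2, a subunit of the Ragulator complex, at 2.74 ± 0.40 against IM. The 2 called lower in AM than in monocytes were Tfeb at -0.36 ± 0.07 and Tfe3 at -0.69 ± 0.06, both named after their values were seen.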

How the data were processed

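RNA levels were deposited by the authors as TPM for 24940 genes in 16 libraries, and per the submitters' processing notes STAR, Bowtie and HOMER were used with build mm10, without versions or roles. Per the labels' protocols polyA RNA was sequenced by a dUTP method. The deposited TPM times gene length gave whole reads in all values checked (tolerance 0.15 read), and in 99.5% of genes the length is the genomic span, so intronic and overlapping reads can enter a gene. Rn45s and Mir6236 were removed and each library was rescaled. The test was limma 3.58.1 (R 4.3.3) on log2(TPM + 1), with 8 group means, 8 residual degrees of freedom and a variance trend, over 13873 genes that averaged 1 TPM or more, all 35 members among them. Calls had a Benjamini-Hochberg adjusted p under 0.05. Differences are on the log2(TPM + 1) scale and understate those of low genes; values after ± without further words are standard errors. The fit was tested on simulated data.

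ATAC peaks are the authors' deposited lists, 1 per cell type and strain, with a score per peak whose scale differs between lists. Promoters are RefSeq, GRCm38.p6. Python 3.11.15, numpy 2.4.6, pandas 2.3.3 and matplotlib 3.10.9 were used. The members, gene lists and tests were chosen with earlier results of these data known. Values by library are given for at least 2 members of each role, first those with the largest called difference between cell types, for members called between strains, and up to 3 genes of each other list are named. The fit had no replicate block. Alternatives covered scaling, pseudocount, filter, trend, replicate block, libraries left out, fold minimum, recovered reads and peak windows.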

Additional observations from a re-analysis of the deposited data

Results flagged for a closer look

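The strain difference, DBA2J minus C57BL6J, differed among the 4 cell types in 7 members by limma's interaction test over all tested genes, and the values given are the range from the lowest to the highest strain difference on the log2 scale. The range was 3.09 for Arsb, 1.98 for Naglu, 1.85 for Gaa, 1.14 for Npc1, 1.09 for Hexa, 1.06 for Pla2g15 and 1.03 for Tpp1. Groups held 2 libraries each, so single libraries were not tested as outliers.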

How the results depend on the processing

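Of the 115 calls of members over the 10 comparisons, 43 kept their direction and their call in every alternative run. Among them were 18 of the 29 calls of AM minus monocytes. No strain call made inside a single cell type was among them, whichever the type. This cannot rank those strain calls, because the fit with only the groups compared called no member for strain in any type. The 12 strain calls of IM held in 4 (Gusb) to 26 (Arsb among others) of 27 alternatives. With the TPM as deposited, AM minus IM gave 9 members higher and 17 lower, AM minus monocytes 9 lower, iMo minus pMo 14 higher and 2 lower, no strain call in AM, and 4 interaction calls. Under that scaling the differences of Arsa, Hexa, Tpp1 and Gla for AM minus IM became -0.1643, -0.0061, -0.2629 and -0.0502, and those of Arsa, Asah1, Lamp1, Ppt1 and Acp2 for AM minus monocytes -0.10, -0.23, -0.16, -0.11 and -0.20. Median-of-ratios scaling gave 6 members lower in IM than in monocytes, 2 lower in iMo than in pMo, 2 strain calls in pMo and 4 interaction calls. With the C57BL6J libraries alone, 9 members were higher in AM than in IM, 2 lower in AM than in monocytes, 1 lower in IM than in monocytes, and 2 higher and 1 lower in iMo than in pMo. There the AM minus IM differences of Hexa, Tpp1 and Gla were -0.0133, -0.2365 and -0.2813, and AM minus monocytes for Asah1 was -0.0463. With the DBA2J libraries alone, 3 members were lower in AM than in IM, 3 lower in AM than in monocytes and 9 lower in IM than in monocytes. Without both C57BL6J IM libraries, 2 members were lower in AM than in IM, 11 higher and 6 lower in IM than in monocytes, 1 interaction call was left, and the strain difference of Npc1 over the cell types was 0.0015 (log2). A 2-fold minimum left 9 higher and 2 lower in AM than in IM, 2 lower in AM than in monocytes, 6 higher and 0 lower in IM than in monocytes, and 1 higher and 1 lower in iMo than in pMo. Without the filter on low values 1 member was lower in IM than in monocytes. Recovered reads with voom weights in limma, chosen after seeing the data, gave 5 lower in IM than in monocytes, 12 higher and 2 lower in iMo than in pMo, 2 strain calls in AM and 12 interaction calls. With only the groups compared, the strain calls within AM, IM, iMo and pMo numbered 0 each in limma, while 10, 16, 4 and 3 members had an unadjusted p under 0.05. Leaving out 1 library moved the strain calls between 0 and 2 in AM, 6 and 14 in IM, 1 and 4 in iMo and 1 and 5 in pMo, the strain calls over the cell types between 6 and 8, and the interaction calls between 3 and 11. The replicate block within strain gave 16 higher and 6 lower for AM minus IM, 3 strain calls in pMo and 5 interaction calls, and changed no count of members by over 1.5 times. Of 6 pairs of cell types in each strain, 1 had residuals correlated over 0.1 (from -0.0582 to 0.122). Whether libraries with the same replicate number shared an animal or day is not given in the labels and cannot be told from these correlations. The summed level of the members in AM over that in monocytes was 1.20, but 0.806 with the TPM as deposited and 1.53 without Psap, Cd68 and Man2b1. The mean number of members with a promoter peak over the 8 lists was 29.8 and moved by less than 1.5 times under each window and score rule run. The causes of these changes were not tested.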
